A study of Mus musculus with 80 samples.

Results

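The genes described here are 9 genes of striated muscle, Acta1, Ckm, Casq1, Tmod4, Tnni2, Tnnt3, Tnnc2, Mylpf and Pvalb, measured in 5 organs. They were chosen by name from the 17097 genes with a probe set that names a single gene on the Affymetrix HT MG-430 PM mouse array. Where a gene had several such probe sets, as Ckm (2) and Tnni2 (3) did, the one with the highest average across the 80 arrays was used. All 9 genes were measured. Total RNA came from frozen lung, liver, kidney, heart and brain of untreated C57BL/6 mice that lack Es-1, the serum carboxylesterase encoded by Ces1c (labelled Es-1 KO, here KO), and of WT mice. Each of the 20 groups of genotype, sex and tissue held 4 arrays. There were 12 KO and 11 WT animals, 23 in all. All 5 tissues were sampled in 9 of them, all but lung in 7 and lung alone in 7. Both genotypes ate standard chow, and ages and the form of the deletion were not given in the sources used here. The series title presents the mice as a model for work on nerve agents. The question asked of these genes is how far their signal varies by organ, genotype, sex and animal.

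A striated muscle contracts when calcium binds troponin, so that tropomyosin shifts on the actin filament and lets myosin pull. Fast skeletal fibres have their own versions of these proteins, while heart muscle shares some of them and uses cardiac versions of others. Calsequestrin stores calcium in the sarcoplasmic reticulum, parvalbumin buffers it in the cytosol of fast fibres, and creatine kinase renews the ATP that is used.

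Values are the deposited RMA values on the log2 scale, where 1 unit is a 2-fold difference in signal. Levels are compared between arrays and never between genes. The median of all probe sets on an array lay between 3.93 and 4.21. All 80 arrays carried the marker genes of their tissue, including the heart of KO female 994, whose title says heart and whose tissue field says lung. Ces1c, the targeted gene, read 12.11 to 12.63 in the 8 WT livers and 9.70 to 10.17 in 7 of the 8 KO livers. The library labelled as the liver of KO male 952 read 12.04, which goes against its label. It was kept in the KO group, as were the brain, heart, kidney and lung arrays labelled with the same animal. In those tissues Ces1c overlapped between WT and KO, so it could not check their label. Some hearts carried genes of other organs. The mean of 10 liver genes was 10.53 in the heart of WT male 903, 8.53 in KO male 962 and 8.49 in KO female 982, against a heart median of 4.95. The mean of 8 lung genes was 6.06 in the heart of KO male 964 and 5.69 in KO female 781, against a median of 3.60.

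Muscle genes were far above the rest of their tissue in 9 arrays, which are described singly. In 8 of them the mean of 25 other fast muscle genes lay more than 0.3 above the tissue median. These were the brains of KO male 962 and WT female 1264, the heart of KO male 1259, the livers of WT females 1264 and 1265, and the lungs of KO female 781, WT female 1265 and WT male 903. The lung of WT male 1960 lay under that limit and was added after its values were seen. No kidney passed the limit. Results that rest on the 8 arrays are given with and without them.

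The promoters of Acta1 and Ckm are shown because both genes were high in every heart. Tnnc2 and Mylpf are shown because they were high in single arrays, and Pvalb because it was high in brain and kidney. Each window is the 250 bases before a start given by RefSeq on GRCm38.p6. That start is the first base of the gene for Acta1, Ckm, Tnnc2 and Pvalb, and for Mylpf it lies 2760 bases inside the gene. They lie at chr8:123894776-123895025, minus strand (Acta1), chr7:19410844-19411093, plus strand (Ckm), chr2:164779735-164779984, minus strand (Tnnc2), chr7:127211358-127211607, plus strand (Mylpf) and chr15:78206401-78206650, minus strand (Pvalb). Capitals mark matches to the E-box form CAGCTG, the MCAT element (letters CATTCC), the TATA box (letters TATAAA), the CArG box or the MEF2 site.
Acta1: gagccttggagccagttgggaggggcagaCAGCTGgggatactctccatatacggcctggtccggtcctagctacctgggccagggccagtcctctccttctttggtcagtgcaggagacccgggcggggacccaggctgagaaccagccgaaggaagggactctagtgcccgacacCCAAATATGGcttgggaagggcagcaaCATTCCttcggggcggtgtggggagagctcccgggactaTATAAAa
Ckm: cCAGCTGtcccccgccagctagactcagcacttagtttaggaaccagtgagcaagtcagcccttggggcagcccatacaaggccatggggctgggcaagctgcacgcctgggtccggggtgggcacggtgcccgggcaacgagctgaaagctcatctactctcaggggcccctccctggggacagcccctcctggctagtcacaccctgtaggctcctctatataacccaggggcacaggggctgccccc
Tnnc2: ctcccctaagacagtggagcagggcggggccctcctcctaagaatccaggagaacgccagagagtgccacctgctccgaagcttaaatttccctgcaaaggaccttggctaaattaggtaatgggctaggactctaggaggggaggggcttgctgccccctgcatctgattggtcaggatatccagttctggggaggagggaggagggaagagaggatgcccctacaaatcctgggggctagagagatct
Mylpf: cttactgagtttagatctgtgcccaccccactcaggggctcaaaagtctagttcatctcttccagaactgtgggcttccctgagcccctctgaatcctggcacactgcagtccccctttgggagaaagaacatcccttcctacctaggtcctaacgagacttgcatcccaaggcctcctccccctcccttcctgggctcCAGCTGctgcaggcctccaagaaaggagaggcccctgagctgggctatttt
Pvalb: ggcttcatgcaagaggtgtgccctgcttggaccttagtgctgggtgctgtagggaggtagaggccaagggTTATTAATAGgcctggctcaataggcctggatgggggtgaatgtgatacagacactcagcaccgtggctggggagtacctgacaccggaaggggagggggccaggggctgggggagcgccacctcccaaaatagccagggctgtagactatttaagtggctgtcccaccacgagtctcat

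RefSeq entries matched 7 of the 9 genes in 8 windows, 2 of them for Pvalb, and none was matched for Tnni2 and Tnnt3. Motifs were searched on both strands. The E-box form CAGCTG, which is also a match to the general E-box CANNTG, began 221 bases before that start in Acta1, 249 in Ckm and 51 in Mylpf. The Acta1 window also held a CArG box at 73, CATTCC at 46 and TATAAA at 7, and the Pvalb window a MEF2 site at 180. CAGCTG was in 4 of the 8 windows and in 13% of 32851 windows of the same length. CANNTG was in 7 of the 8 and 66.2%. The MCAT element, the TATA box, the CArG box and the MEF2 site were each in 1 of the 8, and in 12.6%, 12.4%, 1.47% and 2.92% of all windows. These are matches of letters, and none was tested as a site.

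Acta1 (the actin of skeletal thin filaments), Ckm (muscle creatine kinase), Casq1 (the calsequestrin of fast fibres) and Tmod4 (a tropomodulin, which caps the pointed end of thin filaments) were each higher in heart than in brain, kidney, liver and lung. Tests between tissues were limma fits to all 80 arrays, with Benjamini-Hochberg adjustment over 17097 genes and a call at an adjusted p under 0.05. Calls are common here. Higher in heart were 4 of the 9 genes against brain (47.4% of all genes), 5 against kidney (37.1%), 4 against liver (35.5%) and 5 against lung (42.5%). The fifth gene was Tnni2 against kidney and Pvalb against lung. Tnni2 was not called with WT arrays alone (adjusted p = 0.215). Pvalb, heart minus lung, was not called without animal 1259 (0.32, adjusted p = 0.0894), without animal 1262 (0.44, adjusted p = 0.0529) or with WT arrays alone (-0.015, adjusted p = 0.966). Lower in heart were 1 against brain (32.3%) and 1 against kidney (29.6%), Pvalb in both, and 0 against liver (35.7%) and 0 against lung (36.6%). With such shares of all genes called, a call alone says little about the 9, and the levels are given instead.

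Ckm ran from 12.51 to 12.82 over the 16 hearts, with a median of 12.70 and an SD of 0.08. Lung came next, at 5.80 to 9.70 with a median of 6.33, and no lung reached a heart. Heart exceeded lung by 5.85 (SE 0.35, limma adjusted p = 1.78e-24). Lung exceeded brain by 2.61 (SE 0.35, adjusted p = 5.57e-10), and the brain, liver and kidney medians were 3.70, 3.87 and 3.65. Brain and liver differed by 0.09 (SE 0.35, adjusted p = 0.811), and without the 8 arrays liver was the higher by 0.17 (adjusted p = 0.0328). The brain and liver medians then, 3.68 and 3.83, both lay under the lowest array median (3.93). The lung level of Ckm was present in all lungs: the 12 outside the 9 arrays lay between 5.80 and 6.71. In the same 12 lungs the mean of 22 cardiac genes lay between 5.88 and 6.67, against 3.91 to 4.10 in 14 brains, and the part of heart muscle in this level was not tested. The second Ckm probe set was also highest in heart (4.48 to 5.74), but it read 3.14 to 3.58 in lung and 3.10 to 3.67 in brain.

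Tmod4 ran from 7.05 to 8.47 in heart, with a median of 7.83, and read at most 4.43 elsewhere, in the lung of WT male 903. Heart exceeded lung by 4.20 (SE 0.08, adjusted p = 1.18e-53) and lung exceeded liver by 0.32 (SE 0.08, adjusted p = 0.000196). The lung and liver medians, 3.49 and 3.22, both lay under the lowest array median (3.93). Liver, brain and kidney, with means of 3.25, 3.16 and 3.12, did not differ from their neighbours beyond the error. Casq1 ran from 6.42 to 8.21 in heart, with a median of 7.10, and read at most 6.39 elsewhere. Heart exceeded lung by 2.56 (SE 0.18, adjusted p = 4.13e-21). The order then was lung, brain, liver and kidney, with means of 4.63, 4.59, 4.41 and 4.05, and no neighbours differed (adjusted p from 0.064 to 0.849).

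Acta1 ran from 10.41 to 12.07 in heart, with a median of 11.24. Brain had the next highest mean, with values from 5.30 to 9.88 and a median of 6.19, and heart exceeded it by 4.75 (SE 0.59, adjusted p = 4.7e-11). Heart and lung overlapped, because 3 lungs read 12.26 (WT female 1265), 11.54 (KO female 781) and 11.08 (WT male 903), the first of them above every heart. In the 14 brains outside the 9 arrays Acta1 lay between 5.30 and 6.62, above all 16 kidneys (3.36 to 4.48). Brain exceeded lung by 0.71 (SE 0.59, adjusted p = 0.278), and by 1.58 (adjusted p = 1.23e-09) without the 8 arrays.

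**Figure D1:**
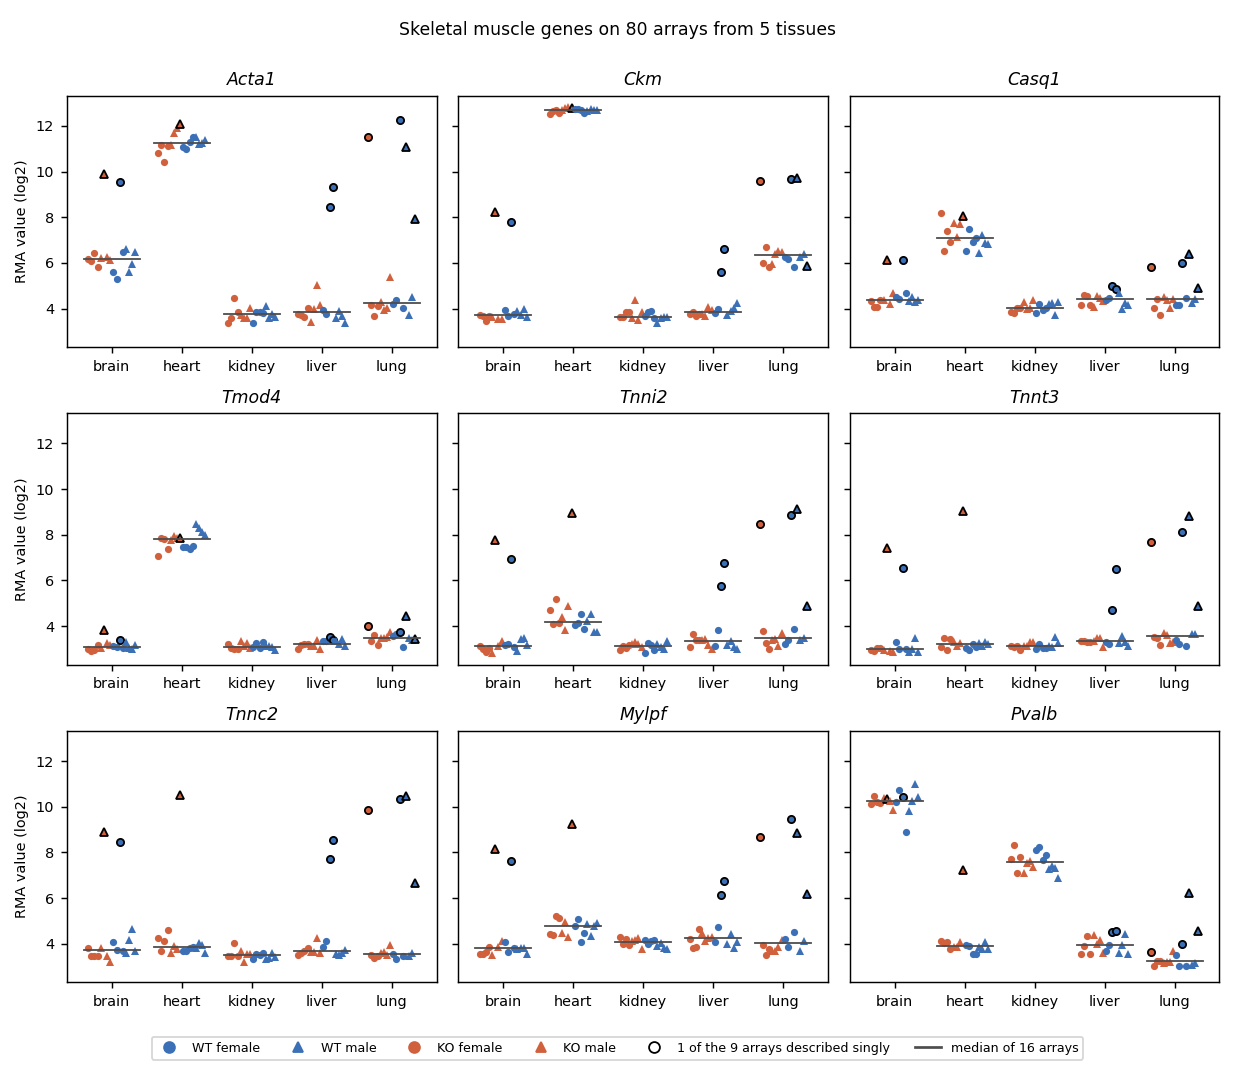
RMA log2 value of each gene (vertical axis) on every array by tissue (horizontal axis), with colour for genotype, symbol for sex, a line at the median of 16 arrays and a black edge on the 9 arrays described singly. Acta1, Ckm, Casq1 and Tmod4 are high in all 16 hearts and Pvalb in brain and kidney, while the highest points of Tnni2, Tnnt3, Tnnc2 and Mylpf have a black edge.

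Among the other pairs of tissues, lung was higher than kidney for 8 of 9 (34.4% of all genes), all but Pvalb, though for 2 with KO arrays alone, and lower for 1 (38.4%). Brain was higher than kidney for 3 (31.9%) and lower for 0 (42.5%), higher than liver for 2 (35.7%) and lower for 0 (50.1%), and higher than lung for 1 (35.6%) and lower for 2 (38.3%). Liver was higher than kidney for 0 (38.7%) and lower for 1 (34.8%), and higher than lung for 1 (47.4%) and lower for 3 (38.4%). Acta1, Ckm and Tmod4 were the genes higher in lung than in liver. Of these, Acta1 was not called in 6 of 33 alternatives, namely with KO or WT arrays alone and without animal 781, 903, 936 or 952.

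Tnni2, Tnnt3 and Tnnc2 are the inhibitory, tropomyosin-binding and calcium-binding subunits of fast troponin, and Mylpf is the regulatory light chain of fast myosin. Their medians were low in every tissue, between 3.15 and 4.19 for Tnni2, 2.99 and 3.57 for Tnnt3, 3.49 and 3.84 for Tnnc2, and 3.81 and 4.77 for Mylpf. Single arrays reached 9.12, 9.05, 10.53 and 9.47. None of the 4 had neighbouring tissues that differed (adjusted p from 0.0873 to 0.987).

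Without the 8 arrays, Tnni2 and Mylpf were higher in heart. Tnni2 lay between 3.74 and 5.18 in the 15 remaining hearts, with a median of 4.13. It exceeded lung by 0.74 (adjusted p = 2.02e-07), liver by 0.96 (adjusted p = 1.78e-10) and brain by 1.15 (adjusted p = 2.18e-13). Mylpf lay between 4.09 and 5.19 in these hearts, and exceeded liver by 0.44 (adjusted p = 0.00378), lung by 0.56 (adjusted p = 0.00026), kidney by 0.63 (adjusted p = 2.24e-05) and brain by 0.90 (adjusted p = 2.15e-08). Tnnt3 was higher in lung than in heart, by 0.35 (adjusted p = 7.14e-05). The lung and heart medians then, 3.48 and 3.21, both lay under the lowest array median (3.93). The lung of WT male 1960 was still in that fit, at 4.87 against at most 3.70 in the other lungs left. Genes called higher in heart then numbered 7 against brain (46.5% of all genes in that fit), 7 against kidney (36.5%), 6 against liver (34.8%) and 7 against lung (40.7%). Between lung and kidney, Mylpf (0.07 (adjusted p = 0.657)) and Tnnc2 (0.28 (adjusted p = 0.0909)) were no longer called. Mylpf also lost that call without any 1 of 13 animals (of 23 left out in turn), and Tnnc2 without animal 781, 903 or 1265. The arrays were left out for related genes after the data were seen, which narrows the spread by construction.

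The Tnni2 probe sets disagreed. The second rose in the same arrays, to 6.16 in the brain of KO male 962, 7.10 in the heart of KO male 1259 and 7.52 in the lung of WT female 1265. The third never exceeded 3.70.

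Among the brains, KO male 962 and WT female 1264 stood apart for 8 of the 9 genes. Here and below, standing apart for a gene means a value above every array of the tissue outside the 9, by any margin. Tnnc2 read 8.89 and 8.47, against 3.20 to 4.65 in the other 14. Acta1 read 9.88 and 9.54, Ckm 8.22 and 7.79 against at most 3.98, and Casq1 6.11 and 6.15 against at most 4.68. Pvalb, at 10.32 and 10.41, lay within the range of the other brains. Among the fast myosin heavy chains, Myh2 read 6.39 and 6.01, Myh1 read 5.42 in WT female 1264, and Myh4, that of the fastest fibres, 8.23 in KO male 962. Cardiac Tnni3 was at 3.29 and 3.06, within the other brains, and the mean of 22 cardiac genes was 0.18 and 0.21 above the brain median, with 2 and 7 of them above all other brains. Of the 25 other fast muscle genes, 16 and 12 were above all 14 other brains. These 2 brains were picked by the mean of those genes, so the counts are no separate support.

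Among the hearts, KO male 1259 stood apart for 6 of the 9 genes. Tnnc2 read 10.53, against 3.58 to 4.58 in the other 15. Tnnt3 read 9.05 against at most 3.46, Mylpf 9.24 against 5.19, Tnni2 8.94 against 5.18 and Pvalb 7.24 against 4.13. Acta1 was the sixth, at 12.07 with the next heart at 11.93. Ckm (12.77), Casq1 (8.06) and Tmod4 (7.88) lay within the other hearts. Myh1 read 9.83, Myh2 9.05 and Myh4 8.04, each against at most 4.16. Tnni1, a slow troponin, read 5.69 against at most 4.30, and 2 of 9 slow muscle genes were above the other hearts. The mean of these 9 was already 11.26 to 11.43 in the other hearts, so the count says little about slow fibres. Their part was not tested. The brown fat genes Ucp1 (8.21) and Cidea (9.51) were within the range of the other hearts, which reached 9.95 and 10.44, and 2 of 11 fat genes were above all of them. The mean of 22 cardiac genes was -0.03 relative to the heart median.

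Among the livers, WT females 1264 and 1265 stood apart for 9 and 8 of the 9 genes. Tnnc2 read 7.70 and 8.53, against 3.48 to 4.23 in the other 14, and Acta1 8.46 and 9.31 against at most 5.01. Tnni2 read 5.75 and 6.79, Tnnt3 4.69 and 6.51, Mylpf 6.14 and 6.75, and Ckm 5.61 and 6.61. Pvalb, at 4.52 and 4.56, was barely above the next liver (4.41), and so was Tmod4 in animal 1264, at 3.54 against 3.44. Myh1 read 6.03 and 7.61 and Myh2 5.05 and 7.80. Myh4 lay within the other livers at 3.51 and 3.29. Myl2, the regulatory light chain of slow fibres and ventricle, read 5.47 and 6.53 against at most 4.95. Of 9 slow muscle genes, 5 and 2 were above the other livers, and of 22 cardiac genes 3 and 5. Both lists hold Myl2, Myl3 and Casq2. The mean of 8 pancreas genes was 4.53 above the liver median in animal 1264 and -0.24 relative to it in animal 1265. It was highest, at 9.42, in the liver of WT male 1262, where Tnnc2 read 3.73.

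Among the lungs, KO female 781, WT female 1265 and WT male 903 stood apart for 8, 9 and 9 of the 9 genes, set against 12 other lungs. In that order Tnnc2 read 9.85, 10.32 and 10.47, against 3.34 to 3.96 in 12 other lungs. Tnni2 read 8.45, 8.87 and 9.12, Tnnt3 7.70, 8.12 and 8.81, Mylpf 8.66, 9.47 and 8.85, and Ckm 9.57, 9.67 and 9.70. Pvalb separated them, at 3.65 and 3.96 in the females and 6.23 in the male, with WT male 1960 at 4.55. Tmod4 in WT female 1265 was barely above the next, at 3.74 against 3.72 in KO male 1871. Myh1 was high in all 3, at 9.09, 9.73 and 9.64. Myh2 was high in the male alone, at 9.33 against 3.20 and 3.27, and Myh4 was only slightly above the other lungs, at 4.02, 4.40 and 3.91 against at most 3.50.

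Markers of other cell types differed among these 3 lungs. Krt4 and Krt13, keratins of stratified epithelium, read 8.88 and 7.08 in KO female 781 and 11.51 and 9.98 in WT female 1265, against 3.78 and 3.12 in WT male 903. Of 8 stratified epithelium genes, 6, 6 and 2 were above the other lungs. Of 11 fat genes the counts were 0, 0 and 8, with Ucp1 at 9.20 and Cidea at 8.93 in the male. Myl2 read 11.01, 3.69 and 7.87, against at most 4.83 in the others. Of 9 slow muscle genes, 6, 1 and 9 were above the other lungs, and of 22 cardiac genes 11, 2 and 16. The means of 22 cardiac genes were 1.10, 0.25 and 1.01 above the lung median, and those of 10 liver genes 3.28, 0.14 and 1.65. The part of each of these cell types in the muscle signal was not tested.

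The lung of WT male 1960 was a fainter case, with 7 of the 9 genes above the 12 other lungs. Tnnc2 read 6.66, Acta1 7.93, Mylpf 6.19, Tnni2 4.88, Tnnt3 4.87 and Pvalb 4.55. Ckm, at 5.85, ranked 14 of 16, and the mean of cardiac genes was -1.40 relative to the lung median.

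**Figure D2:**
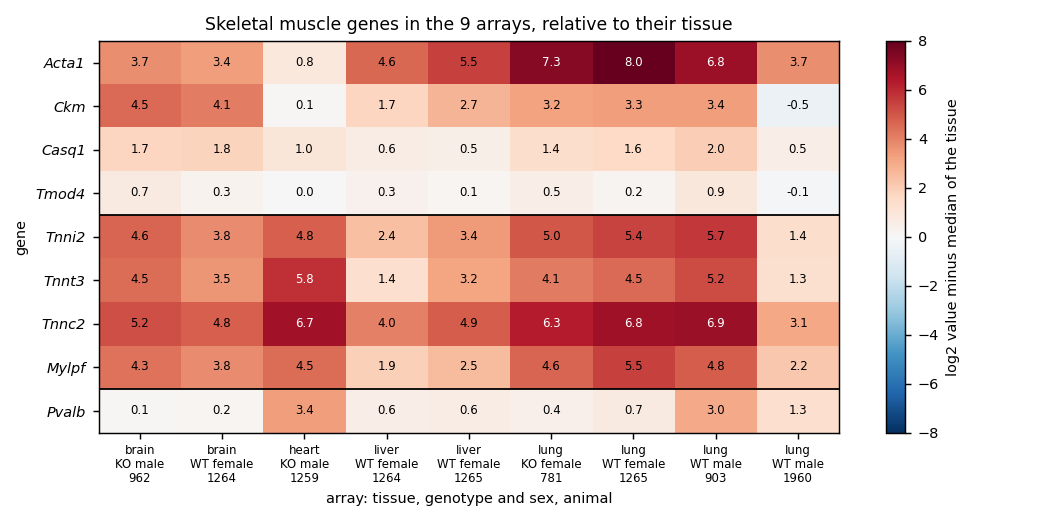
Log2 value minus the median of the 16 arrays of the tissue (colour and number) for each gene (rows) in the 9 arrays described singly (columns). Tnni2, Tnnt3, Tnnc2 and Mylpf are raised in all 9 columns, whereas Ckm and Tmod4 differ little from the median in the heart of KO male 1259, and Pvalb is raised most in that heart and in the lung of WT male 903.

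The fast myosins differed among the 9 arrays, within lung too, and no test was made. Myh4, Myh1 and Myh2 were all raised in the 2 brains and the heart, Myh1 and Myh2 in the livers and the lung of WT male 903, and mainly Myh1 in the lungs of the females. The lung of WT male 1960 read 5.26 for Myh1, 3.84 for Myh2 and 4.51 for Myh4, the last the highest of the lungs. Of 13 genes of muscle precursors and the nerve-muscle junction, at most 2 were above the other arrays of the tissue in any of the 9. RNA came from whole tissue, so that more cells of a type and more RNA per cell cannot be told apart.

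**Figure D3:**
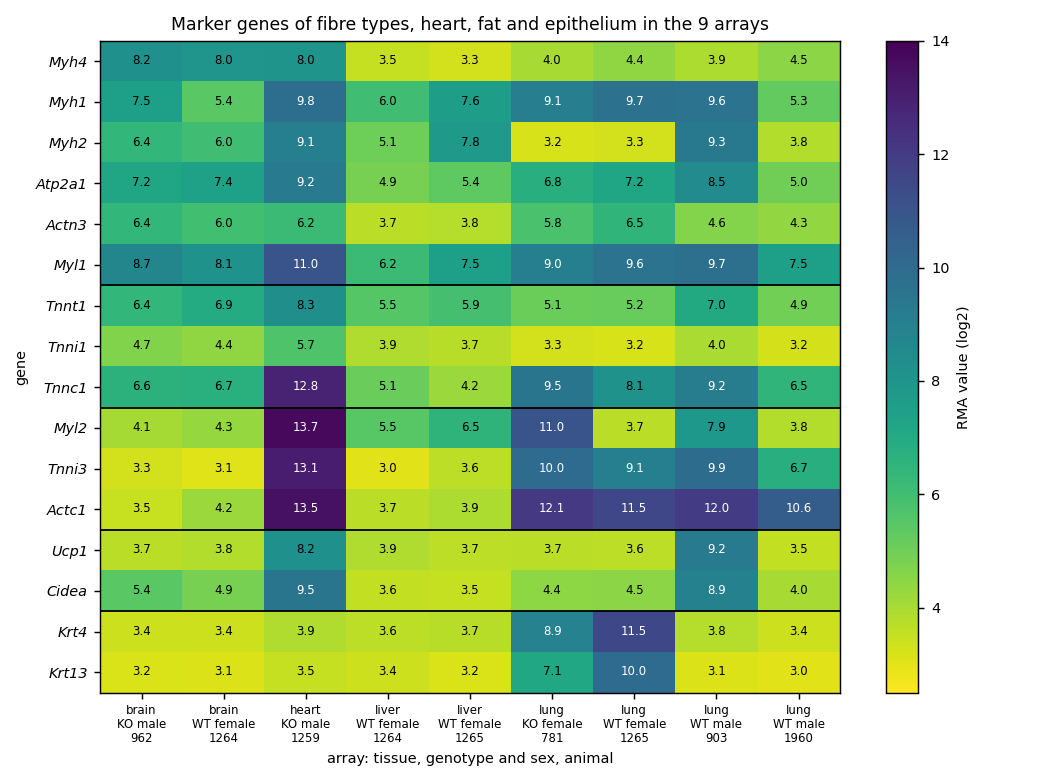
Log2 value (colour and number) of marker genes (rows) in the same 9 arrays (columns), with lines between fast fibre, slow troponin, heart muscle, brown fat and stratified epithelium genes. Myh4 is above 7 only in the brain and heart arrays, Krt4 above 8 only in the lungs of the females, and Ucp1 above 8 only in the heart of KO male 1259 and the lung of WT male 903.

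High values did not extend to all tissues of an animal. For Tnnc2, animal 1264 read 8.47 in brain and 7.70 in liver, but 3.82 in heart and 3.34 in lung. Animal 1265 read 8.53 in liver and 10.32 in lung, but 3.70 in brain, 3.86 in heart and 3.60 in kidney. Animals 781, 903, 962 and 1259 each stood apart in 1 tissue. Of the 9 arrays, 5 were from females and 4 from males, and 3 were KO and 6 WT.

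Across the 16 arrays of a tissue, the genes most like the mean of the 9 were largely other muscle genes in brain, heart, liver and lung. In brain they were Myh4, Myl1, Myh2, Atp2a1 and Actn3 (Pearson r from 0.98 to 0.99). In heart they were Atp2a1, Myh1, Myh2, Myh4 and Mybpc1 (0.97 to 0.98). In liver they were Myh1, Ckmt2, Myl1, Mb and Atp2a1 (0.95 to 0.98). In lung they were Myh1, Atp2a1, Myot, Myoz1 and Smtnl1, from 0.97 up. Without the 2 arrays farthest from the median, r for Myh1 was 0.03 in heart and -0.02 in liver, so that its values there rested on 1 or 2 arrays. In lung it was 0.99, but more than 2 lungs stood apart. Leaving out 2 therefore cannot show whether the lung value rested on a few arrays. In brain r fell to 0.60 for Myh4, 0.61 for Myl1, 0.56 for Myh2, 0.29 for Atp2a1 and 0.19 for Actn3. In kidney, where no array stood apart, the nearest genes were Rgma, Acsf2, Cpt1b, Bmp6 and Timmdc1 (0.77 to 0.86). These are descriptions over 16 arrays normalized together.

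Cardiac counterparts varied little to moderately in heart. Actc1, cardiac actin, lay between 13.22 and 13.57, Tnni3, the inhibitory troponin, between 12.96 and 13.17, and Casq2, the cardiac calsequestrin, between 11.40 and 11.80. Myl7, the atrial light chain, ran more widely, from 11.21 to 12.34. In lung Tnni3 ran from 6.73 to 9.98 and Casq2 from 4.31 to 7.47. All 22 cardiac genes were called higher in heart than in each other tissue. Of 25 other fast muscle genes, 12 were higher in heart than in brain, 15 than in kidney, 11 than in liver and 12 than in lung, where 47.4%, 37.1%, 35.5% and 42.5% of all genes were. Among them the glycolytic genes Eno3 (12.43 to 12.74) and Pgam2 (11.76 to 12.09) and the glycogen phosphorylase Pygm (11.09 to 11.47) were high in every heart. The list is thus not confined to genes particular to fast skeletal fibres.

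KO and WT differed in no tissue for any of the 9 genes by the call used. The limma fit within each tissue called 0 of 9 in brain (0% of all genes), heart (0.00585%), kidney (0%), liver (0.00585%) and lung (0.00585%). At an unadjusted p under 0.05 it gave, in the same order, 0 (5.97% of all genes), 1 (4.54%), 0 (3.36%), 2 (3.35%) and 0 (4.80%). The limma F test for a KO effect that differs between tissues called 0 of 9 (0.0292% of all genes). At an unadjusted p under 0.05 that test gave 0 of 9 (3.61%). The median of the 9 differences, KO minus WT, was 0.59 for heart, -0.55 for liver, -0.89 for lung, 0.01 for brain and 0.03 for kidney, while the medians over all genes lay between -0.01 and 0.02. Without the arrays that stood apart it was -0.12 in brain, 0.08 in heart, 0.01 in liver and -0.22 in lung.

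In heart, Tnni2 averaged 5.02 ± 1.64 (SD, n = 8) in KO and 4.11 ± 0.32 in WT. The difference was 0.91 (SE 0.53, limma adjusted p = 0.997), and 0.34 (adjusted p = 0.937) without the heart of KO male 1259. In liver, Acta1 averaged 3.97 ± 0.48 in KO and 5.01 ± 2.41 in WT. The difference was -1.04 (SE 0.66, adjusted p = 0.994), and 0.22 (adjusted p = 0.999) without the livers of WT females 1264 and 1265. Without the library labelled KO male 952 it was -0.92 (adjusted p = 0.999). In lung, Acta1 differed by -1.37 (SE 1.45, adjusted p = 0.979), and by -0.59 (adjusted p = 0.91) without the lungs of KO female 781, WT female 1265 and WT male 903. The lung of WT male 1960, at 7.93 for Acta1, was not left out. In each case the genotypes overlapped.

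Over the 16 hearts the genes high in every heart had SDs from 0.08 (Ckm) to 0.54 (Casq1). For Tnni2, Tnnt3, Tnnc2 and Mylpf they ran from 1.19 (Mylpf) to 1.68 (Tnnc2). Without the heart of KO male 1259 only Ckm (0.08) had a smaller SD than those fast genes, at 0.155 (Tnnt3) to 0.43 (Tnni2). Acta1 was then at 0.365, Tmod4 at 0.38 and Casq1 at 0.50. Ckm averaged 12.69 ± 0.10 in KO and 12.69 ± 0.06 in WT hearts, with an SE of 0.05 on the difference (limma adjusted p = 0.999). Tmod4 averaged 7.69 ± 0.31 and 7.84 ± 0.43 (adjusted p = 0.997). Casq1 averaged 7.46 ± 0.58 in KO and 6.92 ± 0.35 in WT, with 7 of 8 KO hearts above the WT median. This difference of 0.54 (SE 0.21) was the one under 0.05 before adjustment, and its limma adjusted p was 0.997. In kidney the 9 differences lay between -0.03 (Pvalb, SE 0.15) and 0.13 (Ckm, SE 0.11).

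**Figure D4:**
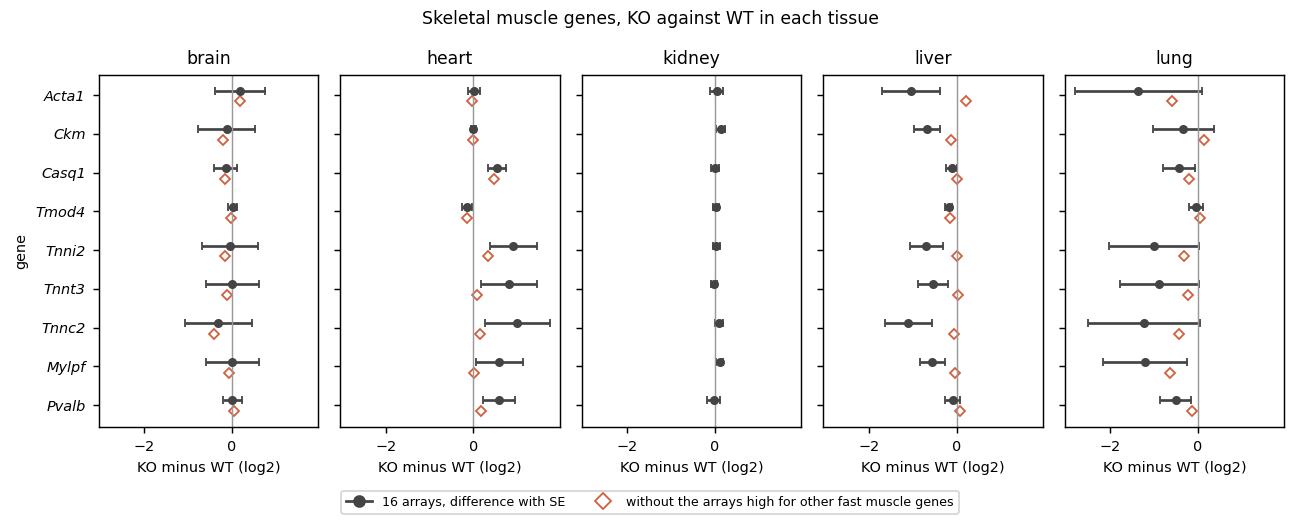
KO minus WT in log2 units (horizontal axis) for each gene (rows) in each tissue (panels), as the estimate with its SE over 16 arrays and, as open diamonds, the estimate without the arrays high for other fast muscle genes. No kidney was left out, and in heart and liver the diamonds of Tnni2, Tnnt3, Tnnc2 and Mylpf lie nearer 0 than the estimates over all arrays.

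The KO effect was not called as different between the sexes for any of the 9 genes in any tissue (limma interaction test, 0% of all genes in each). At an unadjusted p under 0.05 there were 1 in brain (Casq1), 1 in heart (Acta1), 3 in liver (Acta1, Tnnc2 and Mylpf) and 0 in kidney and lung. Over all genes the shares were 4.67% in brain, 4.22% in heart, 4.16% in liver, 3.83% in kidney and 6.08% in lung. Both livers that stood apart were from WT females.

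Sex itself was called for Tmod4 in heart and Pvalb in kidney. Tmod4 ran from 7.77 to 8.47 in male hearts (median 7.96) and from 7.05 to 7.88 in female hearts (median 7.46). All 8 males were above the female median, and the ranges overlapped. The difference, male minus female, was 0.55 (SE 0.11, limma adjusted p = 0.0439). It was 1 of 9 genes called, where 0.269% of all genes were and 0.0292% were higher in males. The adjusted p lay between 0.0161 and 0.156 over 25 alternatives and the call was lost in 16, among them those without any 1 of 12 hearts, KO male 1259 included, while the difference stayed between 0.47 and 0.61. Acta1 averaged 11.53 ± 0.34 in male and 11.05 ± 0.33 in female hearts and did not pass (adjusted p = 0.196).

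Pvalb ran from 7.10 to 8.32 in female kidneys (median 7.84) and from 6.87 to 7.62 in male kidneys (median 7.35). All 8 males were below the female median, and the lowest female was KO female 985. The difference, male minus female, was -0.54 (SE 0.15, limma adjusted p = 0.013, and 0.00165 to 0.0296 over the alternatives). It was 1 of 9 called, where 21.6% of all genes were and 11.9% were higher in females. In kidney parvalbumin marks the distal convoluted tubule. Of 11 other genes listed for that segment, 7 were lower in males and 0 higher, though the list holds genes not confined to it, such as Umod and Wnk1. The 7 included Slc12a3, the sodium chloride transporter of the segment (-0.42, limma adjusted p = 0.0054), and Trpm6, a magnesium channel (-0.63, adjusted p = 0.0068). Calb1, a calcium buffer (-0.45, adjusted p = 0.0091), and Egf, a growth factor (-0.31, adjusted p = 0.0137), were also among them. Their part in the Pvalb difference was not tested. Sex was called for 0 of 9 genes in brain (0.0994% of all genes), liver (4.96%) and lung (0.0526%). At an unadjusted limma p under 0.05 there were 0 (9.60% of all genes), 2 (18.7%) and 0 (5.10%).

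Pvalb, which also marks fast-spiking interneurons and Purkinje cells, was highest in brain. It ran from 8.88 to 11.00 in brain with a median of 10.25, and from 6.87 to 8.32 in kidney with a median of 7.58. Brain exceeded kidney by 2.63 (SE 0.21, limma adjusted p = 7.91e-19) and kidney exceeded heart by 3.49 (SE 0.21, adjusted p = 1.17e-24). Heart and liver differed by 0.11 (SE 0.21, adjusted p = 0.663), and liver and lung by 0.43 (SE 0.21, adjusted p = 0.0485). The last call was lost in 18 of 33 alternatives, among them WT arrays alone (0.22, adjusted p = 0.494) and 14 of 23 in which 1 animal was left out.

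The brain of WT female 1265 was lowest for Pvalb, at 8.88 against 9.83 to 11.00 in the other 15. In that array the mean of 8 genes of the cerebellum was 6.15, against 9.13 to 10.69, and Pcp2, a Purkinje cell gene, was at 3.75 against a median of 10.57. The mean of 12 genes of fast-spiking interneurons lay between 7.30 and 7.69 over all 16 brains. Which part of the brain was taken for each array was not given in the sources used here, and the part of the cerebellum in the Pvalb level was not tested. Across the 16 brains the genes most like Pvalb were Chd7, Crtam, St18, Fat2 and Cep76 (Pearson r from 0.94 to 0.97, and 0.72 to 0.90 without the 2 farthest arrays). Across the kidneys they were Scn4b, Kctd1, Eif3k, Fbxl16 and Rab25 (0.86 to 0.92, and 0.79 to 0.88).

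**Figure D5:**
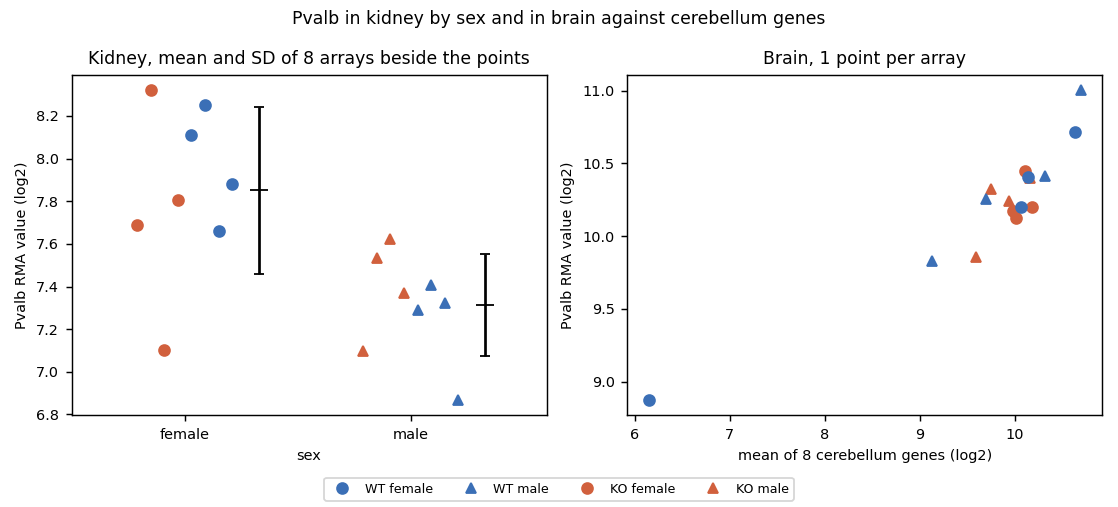
Left, log2 value of Pvalb in each kidney (vertical axis) by sex, with the mean and SD of 8 arrays, 7.31 in males and 7.85 in females. Right, Pvalb in each brain (vertical axis) against the mean of 8 cerebellum genes (horizontal axis), where WT female 1265 lies apart at 6.15 and 8.88.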

How the data were processed

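Each tissue sample was measured on 1 Affymetrix array. The deposited values are log2 intensities that the authors normalized by RMA, with Affymetrix Expression Console and Partek named in the submitters' processing notes. Versions and a genome build were not given in the sources used here. Of 45141 probe sets, 28898 name 1 gene in the platform annotation, 551 several and 15588 none, and 104 controls were left out. Each gene was represented by its probe set with the highest mean, giving 17097 genes, and 28689 of the 28898 probe sets matched the RefSeq gene table by gene ID. The number of arrays limits the precision.

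Differences were fitted with limma 3.58.1 in R 4.3.3 on all genes, with Benjamini-Hochberg adjustment. KO, sex and their interaction were fitted within each tissue on 16 arrays, and differences between tissues and the F test on all 80. Animals gave several tissues each, so animal was tried as a random block, with an estimated correlation of 0.0736. The fits were tested on simulated data. The 9 genes and 17 gene lists (196 of 223 entries measured) were chosen with earlier results of these data known. By rule, the genes named were the 9, their cardiac counterparts, the 4 genes of highest mean in the fast muscle and cardiac lists, and the 5 most correlated with the 9 or with Pvalb. Other marker genes are named after their values were seen. Alternatives were other probe set choices, normalizations and fits, single arrays or animals left out, and, chosen after seeing the data, the arrays high for other fast muscle genes or for liver or lung genes left out together. The alternatives of the sex, interaction and F tests were also added then. No 2 arrays were identical, and the highest correlation between arrays was 0.996.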

Additional observations from a re-analysis of the deposited data

Results flagged for a closer look

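Within the groups of 4 arrays, 39 values of 180 groups tested lay farther from the nearest of the other 3 than Dixon's critical value (a gap over 0.829 of the group's range). Chance flags about 1 in 20 groups. The brain of KO male 962 was highest of its group for Acta1 at 9.88, Tnni2 at 7.78, Tnnt3 at 7.44, Tnnc2 at 8.89, Mylpf at 8.13 and Ckm at 8.22. The brain of WT female 1264 was highest of its group for Tnni2 at 6.95, Tnnt3 at 6.54, Tnnc2 at 8.47, Casq1 at 6.15, Mylpf at 7.62 and Ckm at 7.79. The heart of KO male 1259 was highest of its group for Tnnt3 at 9.05, Tnnc2 at 10.53, Mylpf at 9.24 and Pvalb at 7.24. The lung of KO female 781 was highest of its group for Acta1 at 11.54, Tnni2 at 8.45, Tnnt3 at 7.70, Tnnc2 at 9.85 and Mylpf at 8.66. The lung of WT female 1265 was highest of its group for Acta1 at 12.26, Tnni2 at 8.87, Tnnt3 at 8.12, Tnnc2 at 10.32, Mylpf at 9.47 and Ckm at 9.67. The lung of WT male 903 was highest of its group for Ckm at 9.70 and Tmod4 at 4.43. The liver of WT female 1264 was highest of its group for Tmod4 at 3.54. The rest were single values, most of them near the low end of the array. The highest of their groups were Tnnc2 at 3.79 in the brain of KO female 781, Tnnc2 at 4.01 in the kidney of KO female 985, Tnnc2 at 4.23 in the liver of KO male 964 and Pvalb at 3.66 and Tmod4 at 3.72 in the lung of KO male 1871. The lowest of their groups were Acta1 at 3.37 in the kidney of WT female 876, Casq1 at 3.73 in the kidney of WT male 903, Mylpf at 3.53 in the brain of WT male 1262 and Ckm at 12.57 in the heart of WT female 1265.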

How the results depend on the processing

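Counts of the 9 genes called for KO against WT, for the KO effect by sex and across tissues stayed at 0 in all alternatives run. The call of Tmod4 by sex in heart is the least stable: 0 genes were called with all probe sets fitted, with median centring, without the array high for other fast muscle genes, and without the hearts high for liver or lung genes, and 0 to 1 with single hearts left out. In kidney 2 genes were called by sex with the mean of probe sets, and in liver 0 to 1 with single livers left out, the 1 without WT female 876. Without the 8 arrays high for other fast muscle genes, calls rose to 7 for heart over brain, 4 for liver over brain, 2 for brain over lung, 5 for lung over brain, 1 for lung over heart and 1 for liver over kidney. With WT arrays alone they were 1 for brain over liver, 1 for lung over heart and 0 for liver over lung. With KO arrays alone they were 2 for brain over lung and 2 for lung over kidney. Liver over lung also fell to 0 with all probe sets, with an intensity trend and robust prior, and with quantile normalization again, which gave 1 for liver over kidney. Leaving out 1 animal gave 1 to 2 for brain over lung (2 without 1265), 2 to 5 for lung over brain (5 without 1264 or 962), 0 to 1 for lung over heart (1 without 1259 or 1953), 0 to 1 for liver over kidney (1 without 781) and 0 to 1 for liver over lung. For these alternatives the share of all genes called was counted only for heart over other tissues without the 8 arrays (46.5% over brain). In the main fit between tissues the shares ran from 29.6% to 50.1% by direction. These counts alone therefore say little about the 9 genes. Of the differences between tissues called in either fit, the sign changed for Ckm, Mylpf and Pvalb in 1 alternative each. Without the 8 arrays Ckm was -0.17 in brain minus liver and Mylpf 0.56 in heart minus lung, and Pvalb was -0.015 in heart minus lung with WT arrays alone. Another 94 changes of sign, over 25 differences between tissues, involved no call. The cause was not tested.

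With animal as a replicate block, the counts of calls were those without it, for example 4 for heart over brain, 8 for lung over kidney and 0 for KO against WT in each tissue. It changed no other count. For single genes, differences between tissues lost their call in 57 of the alternatives and gained a call in 51. In 2859 they stayed called or uncalled as before, and these include the 94 changes of sign that involved no call.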
